A study of Homo sapiens with 6 samples.

Results

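The 40 genes described here carry out the oxidation of fatty acids in mitochondria and peroxisomes, activate fatty acids for it, or build the peroxisome. They were chosen by function, as a fixed list of symbols, but with earlier results of these data known. All 40 had a row among the 29806 NCBI Gene numbers of the counts. RNA-seq was performed on LNCaP cells, a human prostate cancer line that grows in response to androgen, in 2 groups of 3 dishes each. LNCaP parental cells are wild type for *PRKRA*, the gene encoding PACT, and served as the control. PACT KO cells carry a CRISPR-Cas9 knockout of *PRKRA* and come from 1 clone, so that effects of the clone and of the loss of PACT cannot be told apart. Both groups grew in RPMI medium with fetal bovine serum, and RNA was taken 48 h after plating at about 80% confluency. The replicates are dishes, so p-values measure the spread between dishes.

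A fatty acid is first joined to coenzyme A by an acyl-CoA synthetase. Long chains then cross into the mitochondrion as carnitine esters and are shortened in a cycle of dehydrogenation, hydration, a further dehydrogenation and thiolysis, while electrons from the first step pass through the electron transfer flavoprotein to ubiquinone. Peroxisomes shorten very long and branched chains by a parallel set of enzymes, produce hydrogen peroxide that catalase removes, and import all of their enzymes through peroxins. Prostate tumours are known for their use of fatty acids, and the racemase AMACR, which prepares branched chains for oxidation, is a tissue marker of this cancer.

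Reads counted on genes numbered 19930060 to 24940838 per library. *PRKRA* itself fell, at 38.8, 37.4 and 35.0 CPM in parental and 11.8, 13.6 and 12.0 CPM in PACT KO libraries (CPM are the reads scaled by TMM to a common library size), a log2 change of -1.57 with a standard error (SE) of 0.069. Of 9 luminal prostate markers all were detected and 6 passed the test, 4 lower and 2 higher. Only 2 were lower with library totals or upper quartile scaling, and without LNCaP parental replicate 1, 2 or 3 or PACT KO replicate 3. The androgen-regulated *KLK3* and *KLK2* were DEGs, from 63.8 to 11.3 and from 26.9 to 15.1 CPM. The 9 markers, among which *FOLH1* had the most reads, had a summed level of 3697 to 3731 CPM in the parental and 3741 to 3786 CPM in the knockout libraries. The 5 leukocyte markers never exceeded 3 reads, and *KRT5* and *KRT15* of the basal list and *PECAM1* and *CDH5* of the endothelial list had 0 reads in every library. Of the fibroblast and smooth muscle list *COL1A1* rose, *ACTA2* did not pass and *COL1A2* and *DES* had 0 reads, for a summed level of 31.0 to 35.0 and 43.7 to 49.7 CPM. *VWF* carried nearly all reads of the endothelial list and fell, and *ALB* rose in the hepatocyte list, on 6 to 25 reads. The part of these genes in the results was not tested. Both groups are cultures of the LNCaP line, and in bulk RNA fewer cells that express a gene and less RNA per cell cannot be told apart.

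The members covered a wide range of abundance. Set per kilobase of exon (RPKM, with the exons of GENCODE release 29), the enoyl-CoA hydratase *ECHS1* stood highest at 196 in LNCaP parental cells, before *ACADVL* at 92.7, *ACSL1* at 66.2 and *HADHA* at 57.9. The lowest levels were those of *AMACR* at 1.38, *PPARA* at 1.44 and *ACSL4* at 1.65. Every member had at least 126 reads in every library, and 27 had a mean of at least 1000 reads. All 40 passed the filter on low counts. The spans of 15 members overlapped another counted gene, and those with more than 400 reads in any library are given with the member.

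In the comparison of PACT KO with LNCaP parental cells, 13 members passed an FDR of 0.01 as lower and 6 as higher (edgeR, quasi-likelihood F-test over all genes). Across the 14462 genes tested, 18.8% were called lower and 15.3% higher, against 32.5% and 15% of the members. Calls were more frequent among genes with many reads. Genes with at least as many mean reads as the lowest member gave 23.1% and 17.2%. Where the mean reached 1000 reads, 31.4% of genes were lower and 18.2% higher, and of the 27 members at that depth 44.4% were lower and 14.8% higher. All 19 called members had separate groups, as did 5 of the 21 not called, against 52.2% of all genes tested. The changes were small. The median log2 fold change was -0.058 over the members and 4.4e-04 over all genes, and 16 of the 19 called members changed by less than 20%. Only *ACSL4* was a DEG by the study's thresholds (FDR under 0.01 and at least 1.5-fold), against 5.72% of all genes tested, 3.07% in that direction and 2.65% in the other. In 26 of the 40 members the 95% interval of the change lay within 1.2-fold in either direction, and so did that of 16 of the 21 members not called.

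**Figure D1:**
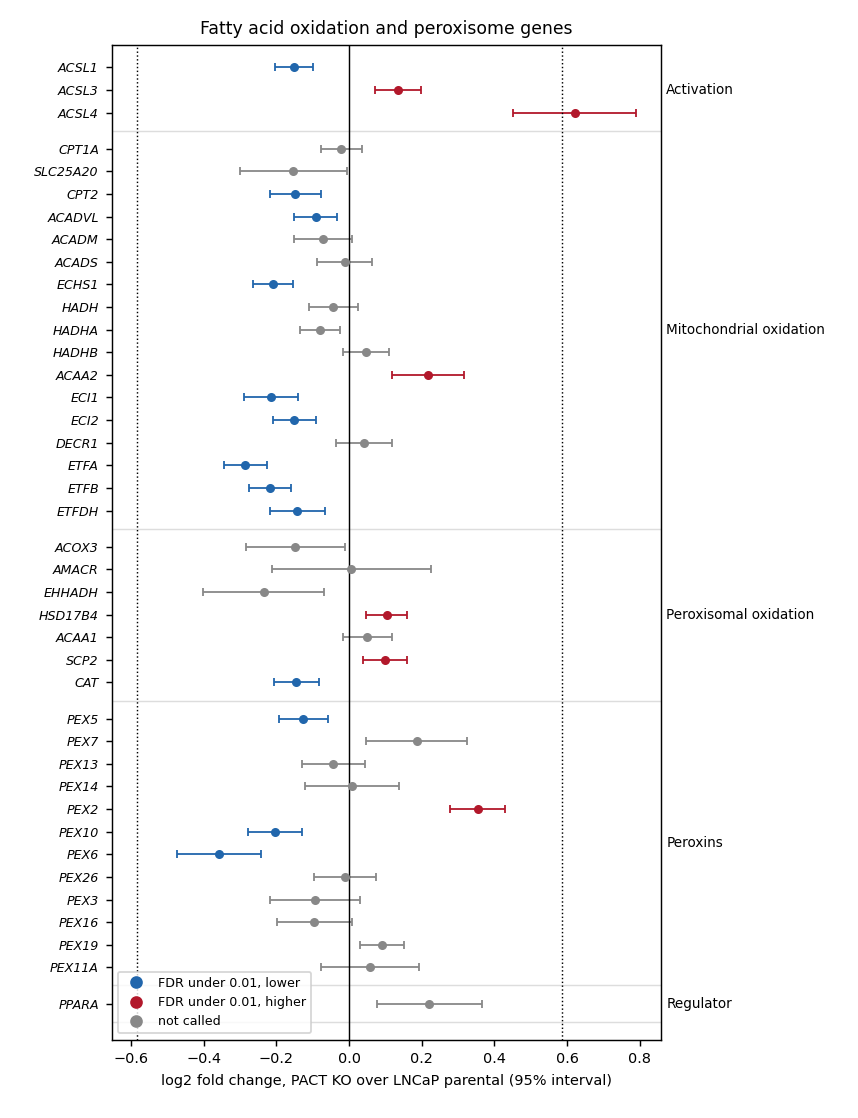
Log2 fold change of each of the 40 members in PACT KO over LNCaP parental cells (x axis), with the 95% interval from edgeR, grouped by compartment (right). Blue and red points passed an FDR of 0.01, and dotted lines mark 1.5-fold. In the mitochondrial group 8 of 17 genes were lower and 1 higher, whereas *ACSL4* alone reached 1.5-fold.

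Of the 13 lower members, 8 belonged to mitochondrial oxidation. Among the 17 genes of that compartment, 8 were lower and 1 higher, with a median log2 fold change of -0.092. At a mean of at least 1000 reads, 8 of 15 of these (53.3%) were lower, beside the 31.4% of all genes at this depth. Of the 7 genes of peroxisomal oxidation, catalase included, 1 was lower and 2 higher (median 0.0065), and of the 12 peroxins 3 were lower and 1 higher (median -0.028), shares of 25% and 8.33%. These counts describe lists chosen with earlier results of these data known, and no test of 1 list against another was made. The other scalings moved the median of all genes by at most 0.0292. With library totals alone, which gave this largest shift, the peroxin median of -0.028 turned sign, to 0.0016. The peroxisomal median, a value near 0, ran from -0.066 to 0.058 when single libraries were left out.

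**Figure D2:**
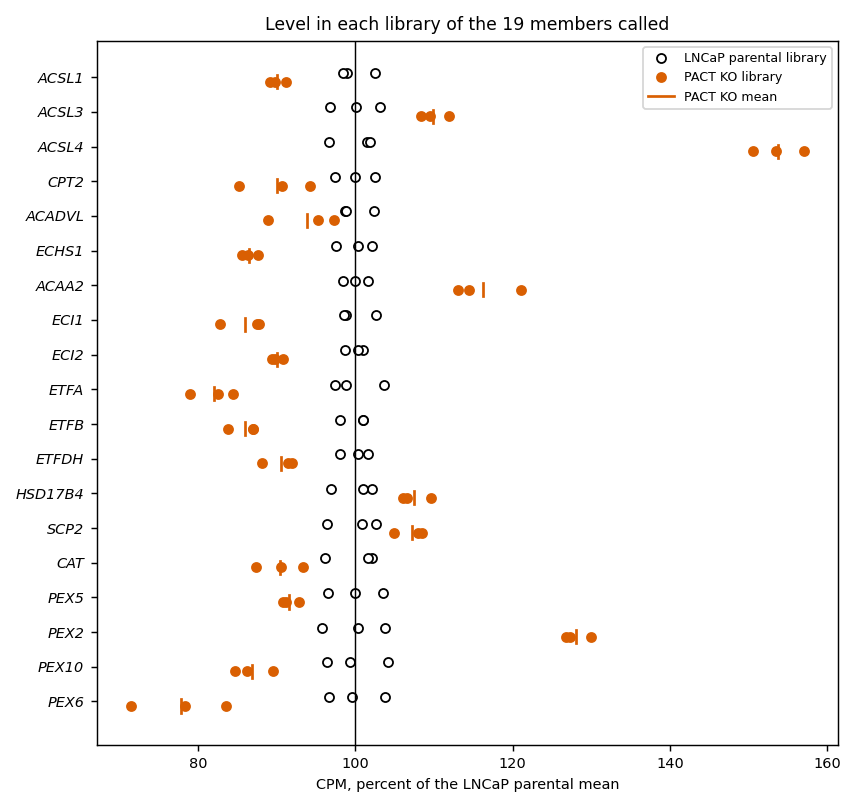
CPM of the 19 called members in each library, as a percent of the LNCaP parental mean (x axis). Open circles are LNCaP parental libraries, orange circles PACT KO libraries and orange lines the PACT KO mean. The groups do not overlap in any of the 19 rows, and *ACSL4*, *PEX2* and *PEX6* stand farthest from the parental mean.

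The acyl-CoA synthetases, the entry to both pathways, moved in opposite directions. *ACSL4* (chrX:109641335-109733257), which prefers arachidonate and other polyunsaturated chains, had 10.2, 10.7 and 10.8 CPM in parental and 16.2, 16.6 and 15.9 CPM in PACT KO libraries. It rose 1.54-fold (log2 fold change 0.62, SE 0.083, FDR = 8.24e-08, edgeR), and the 95% interval ran from 1.37-fold to 1.73-fold, which includes changes below 1.5-fold. A test against 1.5-fold itself (edgeR's glmTreat) called 0 members, with 0 at an unadjusted p under 0.05 and a p of 0.143 for *ACSL4*. The likelihood ratio test, DESeq2 and limma-voom each kept *ACSL4* as a DEG. *ACSL3*, a synthetase of the endoplasmic reticulum and lipid droplets, had 121, 117 and 124 CPM in parental and 135, 131 and 132 CPM in PACT KO libraries (log2 fold change 0.14, SE 0.031, FDR = 4.83e-04). *ACSL1*, which supplies acyl-CoA at the mitochondrial surface among other sites, had 426, 412 and 409 CPM in parental and 371, 379 and 373 CPM in PACT KO libraries (log2 fold change -0.15, SE 0.026, FDR = 9.41e-06). The groups of all 3 genes were separate. Without LNCaP parental replicate 2, *ACSL3* missed the threshold (log2 fold change 0.11, FDR = 0.0101). Summed over the 3 genes the level was 557, 539 and 544 CPM in the LNCaP parental libraries and 522, 526 and 521 CPM in the PACT KO libraries.

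In the carnitine shuttle, *CPT2*, which restores the acyl-CoA on the inner side of the membrane, had 115, 112 and 109 CPM in parental and 102, 105 and 95.4 CPM in PACT KO libraries (log2 fold change -0.15, SE 0.035, FDR = 5.64e-04, edgeR). Its call was lost without PACT KO replicate 3, at a log2 fold change of -0.11 (FDR = 0.0156). The span of *CPT2* shares 99 bases with *CZIB*, a gene of 737 to 862 reads. *CPT1A*, whose product catalyses the step that controls entry of long chains, had 211, 215 and 218 CPM in parental and 207, 216 and 211 CPM in PACT KO libraries. The groups of *CPT1A* overlapped and the interval of its log2 fold change was -0.078 to 0.035. The carrier *SLC25A20* had overlapping groups as well (log2 fold change -0.15, SE 0.072, FDR = 0.0815), at 384 to 580 reads per library.

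Within the mitochondrial cycle, the enzymes of successive steps did not move alike. *ECHS1*, the hydratase of short chains, had 323, 318 and 309 CPM in parental and 273, 277 and 271 CPM in PACT KO libraries and fell by 0.21 on the log2 scale (SE 0.027, FDR = 3.92e-08, edgeR). *ACAA2*, the thiolase that closes the cycle, had 32.6, 33.7 and 33.1 CPM in parental and 37.5, 40.1 and 37.9 CPM in PACT KO libraries and was the only mitochondrial member that rose (log2 fold change 0.22, SE 0.048, FDR = 3.24e-04). The groups were separate in both genes. *ACADVL*, the dehydrogenase of very long chains, had 445, 462 and 446 CPM in parental and 429.6, 401 and 439 CPM in PACT KO libraries (log2 fold change -0.092, SE 0.029, FDR = 0.0087). Its groups were separate by a narrow gap, and its call was lost in 9 of the 15 other settings, with FDR values up to 0.114. The span of *ACADVL* shares 2926 bases with *DLG4*, which rose (log2 fold change 0.56, SE 0.083, FDR = 5.81e-07), and whether the counting used strand is not given in the sources used here.

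The remaining genes of the cycle did not pass. The change on the log2 scale was -0.072 (SE 0.039) for *ACADM* and -0.012 (SE 0.037) for *ACADS*, the dehydrogenases of medium and short chains, and -0.044 (SE 0.033) for the hydroxyacyl-CoA dehydrogenase *HADH*. *HADHA* and *HADHB* encode the subunits of the trifunctional protein of the inner membrane, and they lie head to head on chromosome 2 with starts 307 bases apart. *HADHA* had 253, 258 and 251 CPM in parental and 235, 244 and 242 CPM in PACT KO libraries, which did not overlap (log2 fold change -0.081, SE 0.027, FDR = 0.015). For *HADHB* the values were 167, 151 and 154 CPM in parental and 162, 163 and 162 CPM in PACT KO libraries, and they overlapped (log2 fold change 0.046, SE 0.032, FDR = 0.241). The span of *HADHA* shares 13670 bases with *GAREM2*, a gene of 234 to 312 reads. Without PACT KO replicate 2 *HADHA* passed, at a log2 fold change of -0.092 (FDR = 0.00793).

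Among the enzymes that prepare unsaturated chains for the cycle, both isomerases fell. *ECI1* had 77.8, 74.9 and 74.7 CPM in parental and 66.3, 66.5 and 62.7 CPM in PACT KO libraries (log2 fold change -0.22, SE 0.037, FDR = 7.66e-06, edgeR). For *ECI2*, whose product is found in mitochondria and peroxisomes, the values were 145, 144 and 142 CPM in parental and 130.4, 128 and 129 CPM in PACT KO libraries (log2 fold change -0.15, SE 0.029, FDR = 5.67e-05). *DECR1*, the dienoyl-CoA reductase, showed overlapping groups at 68.3 ± 2.21 CPM in LNCaP parental and 70.2 ± 2.75 CPM in PACT KO cells (SD, n = 3 each), and its log2 fold change was 0.040 with an interval of -0.037 to 0.12.

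The genes of electron transfer from fatty acid oxidation were lower in all 3 cases. *ETFA* (chr15:76215353-76311469, GRCh38), which encodes the alpha subunit of the flavoprotein that collects electrons from the acyl-CoA dehydrogenases, had 276, 259.9 and 263 CPM in parental and 220.0, 225 and 211 CPM in PACT KO libraries. This was the largest fall among the 17 members of mitochondrial oxidation (log2 fold change -0.29, SE 0.030, FDR = 2.76e-10, edgeR). *ETFB* (chr19:51345155-51366388), the beta subunit, had 213, 213 and 207 CPM in parental and 184, 184 and 177 CPM in PACT KO libraries (log2 fold change -0.22, SE 0.028, FDR = 5.22e-08). *ETFDH*, the oxidoreductase that hands the electrons to ubiquinone, had 64.3, 66.6 and 65.7 CPM in parental and 59.9, 60.3 and 57.8 CPM in PACT KO libraries (log2 fold change -0.14, SE 0.037, FDR = 0.00194). In all 3 genes every PACT KO library lay below every LNCaP parental library. Summed over the 3 genes the level was 554, 539 and 536 CPM in the LNCaP parental libraries and 463, 469 and 445 CPM in the PACT KO libraries, which is 15.4% lower on average. The call of *ETFDH* was lost with library totals as the scaling, with DESeq2, and without LNCaP parental replicate 2 or PACT KO replicate 3 (FDR 0.0103 to 0.0181). The span of *ETFDH* shares 497 bases with *PPID*, whose log2 fold change was -0.10 (SE 0.045, FDR = 0.0564).

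The sequences before the starts of *ETFA* and *ETFB*, the pair of subunits that fell together, are shown with that between the head-to-head genes *HADHA* and *HADHB* and that of *ACSL4*, the DEG among the members. Each is the 250 bases upstream of the start in the RefSeq table (GRCh38.p14), written 5′ to 3′ on the gene's strand, where capitals mark the GC box (GGGCGG or its complement CCGCCC) and the motif of the factor NRF1 (GCGCA and GCGC with 1 base between, on either strand). Both motifs, and AGGTCA alone below, were chosen after the data were seen.
*ETFA*, chr15:76311470-76311719, minus strand: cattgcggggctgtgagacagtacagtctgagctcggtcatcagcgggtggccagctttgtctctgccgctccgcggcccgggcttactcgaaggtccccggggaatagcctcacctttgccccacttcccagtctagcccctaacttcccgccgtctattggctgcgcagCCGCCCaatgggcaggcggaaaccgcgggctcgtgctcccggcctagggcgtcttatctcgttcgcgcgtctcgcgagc
*ETFB*, chr19:51366389-51366638, minus strand: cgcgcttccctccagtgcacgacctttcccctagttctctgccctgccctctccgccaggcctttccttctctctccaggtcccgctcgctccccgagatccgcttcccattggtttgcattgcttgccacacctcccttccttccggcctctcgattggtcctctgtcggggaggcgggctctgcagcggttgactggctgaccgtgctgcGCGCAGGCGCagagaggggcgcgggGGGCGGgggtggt
*HADHA* and *HADHB*, chr2:26244689-26244938, strand of *HADHB*: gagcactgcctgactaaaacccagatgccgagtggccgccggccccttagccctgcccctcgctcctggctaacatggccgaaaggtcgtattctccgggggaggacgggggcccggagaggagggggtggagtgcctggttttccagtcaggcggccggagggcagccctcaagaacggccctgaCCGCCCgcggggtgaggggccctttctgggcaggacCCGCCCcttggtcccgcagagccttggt
*ACSL4*, chrX:109733258-109733507, minus strand: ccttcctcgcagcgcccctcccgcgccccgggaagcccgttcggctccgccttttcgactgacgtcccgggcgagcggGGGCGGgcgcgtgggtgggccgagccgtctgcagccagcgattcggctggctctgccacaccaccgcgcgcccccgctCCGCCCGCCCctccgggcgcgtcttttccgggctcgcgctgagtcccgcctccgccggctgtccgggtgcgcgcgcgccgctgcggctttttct

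The RefSeq table held windows of 250 bases before and 50 after a start for 34 of the 40 members, 50 windows in all. A GC box stood in 74% of them and in 45% of all 35116 windows, while G and C made up a median of 65.7% of the bases in the members' windows and 58.7% in all. The NRF1 motif stood in 1 window each of *ETFB* and *PPARA*, 4% of the members' windows, and in 5.78% of all. The motif of a PPAR with its partner RXR (AGGTCA repeated after 1 spacer base) and that of an estrogen-related receptor (TNAAGGTCA, which contains AGGTCA), searched on both strands, were in 0 of the 50 windows, and in 0.0228% and 0.951% of all. AGGTCA alone stood in 0 of 50 and in 13.8% of all. Finding no match says only that these letters are not in these windows.

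Of the 6 genes of peroxisomal oxidation other than catalase, 2 rose and 0 fell at an FDR under 0.01, beside 15.3% higher and 18.8% lower among all genes tested. *HSD17B4*, the bifunctional protein that hydrates and dehydrogenates very long and branched chains, had 228, 216 and 225 CPM in parental and 245, 237 and 238 CPM in PACT KO libraries (log2 fold change 0.10, SE 0.028, FDR = 0.00272, edgeR). *SCP2*, whose longer product is the thiolase of branched chains, had 159, 169 and 166 CPM in parental and 173, 178 and 179 CPM in PACT KO libraries (log2 fold change 0.10, SE 0.030, FDR = 0.00595). The rises were 7.42% and 7.12%, with separate groups. *HSD17B4* missed the threshold without LNCaP parental replicate 2 or PACT KO replicate 1 (FDR 0.0457 and 0.0109), and *SCP2* with DESeq2 (FDR = 0.0114) and without LNCaP parental replicate 1 or 3 or PACT KO replicate 2 or 3 (FDR up to 0.0634).

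The other 4 did not pass. *EHHADH*, the second bifunctional enzyme of the peroxisome, had 17.7, 19.8 and 16.4 CPM in parental and 15.9, 15.8 and 13.9 CPM in PACT KO libraries, with separate groups (log2 fold change -0.24, SE 0.082, FDR = 0.0185, edgeR), and it passed in 4 of the other settings. *ACOX3*, an oxidase of branched chains, had overlapping groups (log2 fold change -0.15, SE 0.067, FDR = 0.0707). *ACAA1*, the peroxisomal thiolase, was at 113 ± 4.92 CPM in LNCaP parental and 117 ± 0.970 CPM in PACT KO cells (SD, n = 3 each) and a log2 fold change of 0.051, with overlap. *AMACR* had 6.47, 6.06 and 7.47 CPM in parental and 7.37, 6.50 and 6.23 CPM in PACT KO libraries, which overlapped, and the interval of its log2 fold change was -0.21 to 0.23. It was the least read member, with 131 to 185 reads in parental and 126 to 182 in knockout libraries, and a read-through gene that spans nearly all of it (*C1QTNF3-AMACR*) had 19 to 40 reads, so that the reads of *AMACR* could be split between the rows. Summed over the 6 genes the level was 548, 553 and 550.5 CPM in the LNCaP parental libraries and 579.9, 576 and 577 CPM in the PACT KO libraries, with no overlap. Most of this sum came from *HSD17B4* and *SCP2*, with means of 223 and 165 CPM in LNCaP parental cells, so it does not stand for each gene.

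Catalase, which degrades the hydrogen peroxide made by the peroxisomal oxidases, fell, unlike *HSD17B4* and *SCP2*. *EHHADH* and *ACOX3*, which did not pass, also had negative log2 fold changes. *CAT* had 185, 174 and 184 CPM in parental and 158, 169 and 164 CPM in PACT KO libraries, with separate groups (log2 fold change -0.15, SE 0.031, FDR = 1.59e-04, edgeR). Its direction and call were kept in every setting tried.

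**Figure D3:**
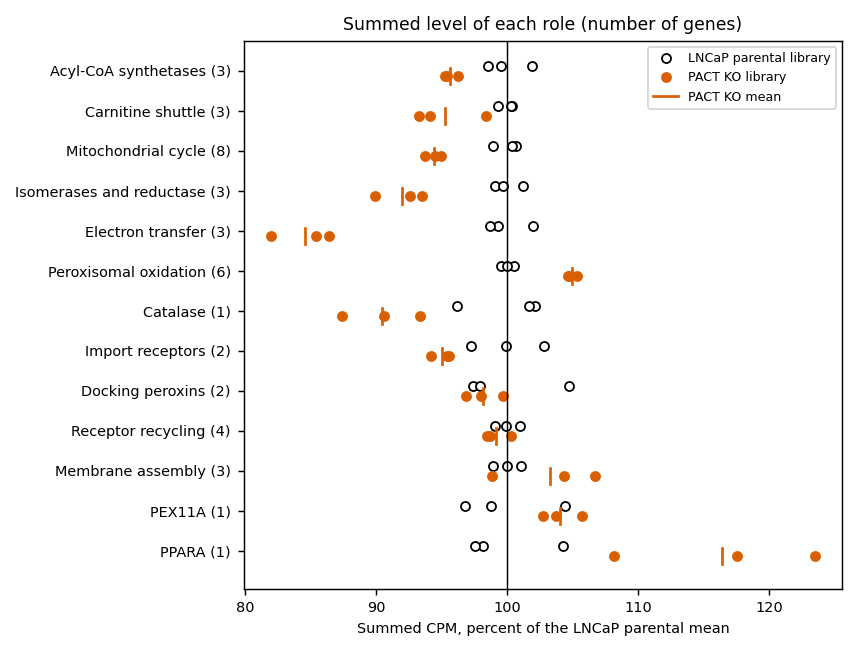
Summed CPM of the members of each role in every library, as a percent of the LNCaP parental mean (x axis), with the number of genes in brackets. Open circles are LNCaP parental and orange circles PACT KO libraries, and orange lines are PACT KO means. The electron transfer genes lie lowest, 15.4% below the parental mean, and the 6 genes of peroxisomal oxidation other than catalase lie 4.94% above it.

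The peroxins with the clearest changes belong to the machinery that returns the import receptor PEX5 to the cytosol. *PEX2* (chr8:76980258-77001044), a RING-finger ubiquitin ligase of the peroxisomal membrane, had 61.5, 58.7 and 63.6 CPM in parental and 78.0, 77.6 and 79.6 CPM in PACT KO libraries. It rose by 27.8% (log2 fold change 0.35, SE 0.037, FDR = 3.87e-10, edgeR). *PEX10* (chr1:2403974-2413827), another ligase of the same complex, had 82.0, 86.0 and 79.6 CPM in parental and 69.9, 71.2 and 73.9 CPM in PACT KO libraries and fell (log2 fold change -0.20, SE 0.037, FDR = 1.71e-05). *PEX6* (chr6:42963865-42979181), an ATPase that pulls the modified receptor out of the membrane, had 36.1, 34.7 and 33.6 CPM in parental and 27.3, 29.1 and 24.9 CPM in PACT KO libraries, the largest fall of the 40 members (log2 fold change -0.36, SE 0.057, FDR = 2.51e-06). The groups of these 3 genes were separate, and their calls held in all 15 other settings. The span of *PEX10* shares 1463 bases with *RER1*, which had 2528 to 3465 reads and fell too (log2 fold change -0.18, SE 0.031, FDR = 6.40e-06), and without knowledge of strand the reads of the shared stretch cannot be told apart. *PEX26*, the membrane anchor of PEX6, was at 48.5 ± 1.18 CPM in LNCaP parental and 48.1 ± 2.11 CPM in PACT KO cells (SD, n = 3 each) and did not pass (log2 fold change -0.012, SE 0.042, FDR = 0.846).

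Of the import receptors, *PEX5*, which binds enzymes with the C-terminal signal, decreased on average from 105 ± 3.66 to 96.3 ± 1.14 CPM (SD, n = 3 each, log2 fold change -0.13, SE 0.033, FDR = 0.00196, edgeR). *PEX7*, the receptor of the N-terminal signal that the thiolase ACAA1 carries, had 19.4, 19.6 and 19.8 CPM in parental and 23.7, 21.5 and 21.6 CPM in PACT KO libraries. Its groups were separate but it did not pass (log2 fold change 0.19, SE 0.069, FDR = 0.0267). The call of *PEX5* was lost in 5 settings (FDR 0.0102 to 0.0213), with library totals, upper quartile scaling, DESeq2, and without LNCaP parental replicate 1 or PACT KO replicate 1.

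The docking peroxins gave overlapping groups, at 47.9 ± 2.44 CPM in LNCaP parental and 46.4 ± 0.104 CPM in PACT KO cells (SD, n = 3 each) for *PEX13* and 24.1 ± 0.860 CPM in LNCaP parental and 24.3 ± 1.06 CPM in PACT KO cells (SD, n = 3 each) for *PEX14*. The intervals of their log2 fold changes were -0.13 to 0.042 and -0.12 to 0.14. Of the genes that insert peroxisomal membrane proteins, *PEX3* and *PEX16* were at -0.094 (SE 0.062) and -0.10 (SE 0.051) on the log2 scale, with overlap. *PEX19*, their cytosolic carrier, had 193.25, 188 and 188 CPM in parental and 193.46, 212 and 201 CPM in PACT KO libraries. Its groups were separate by a narrow gap. It did not pass (log2 fold change 0.091, SE 0.030, FDR = 0.0138), but it passed in 5 of the other settings. *PEX11A*, which acts in peroxisome division, was at 0.058 (SE 0.067).

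*PPARA* encodes a nuclear receptor for fatty acids that drives genes of oxidation in liver and other tissues. It had 18.6, 18.5 and 19.8 CPM in parental and 22.3, 23.4 and 20.5 CPM in PACT KO libraries, with separate groups. With a log2 fold change of 0.22 and SE 0.071 it stood just outside the threshold (FDR = 0.0104, edgeR), and it passed in 8 of the 15 other settings, with FDR values of 0.00242 to 0.00933.

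Ratios of the reads of partner genes within each library do not depend on how libraries are scaled. They were taken for 11 pairs and compared by an exact permutation test, 2-sided, whose smallest p with 3 libraries against 3 is 0.10. The ratio of *PEX2* to *PEX10* reads was 0.750, 0.683 and 0.799 in the parental and 1.12, 1.09 and 1.08 in the knockout libraries, and that of *PEX6* to *PEX26* was 0.724, 0.729 and 0.698 in the parental and 0.562, 0.584 and 0.544 in the knockout libraries. Neither overlapped between the groups (p = 0.10 each, exact permutation test, 0.138 after Benjamini-Hochberg over the 11 pairs). *ACSL4* to *ACSL3* gave 0.0847, 0.0919 and 0.0867 in the parental and 0.120, 0.127 and 0.121 in the knockout libraries, also separate, as was the ratio of *HADHA* to *HADHB* at 1.52, 1.70 and 1.63 in the parental and 1.45, 1.49 and 1.49 in the knockout libraries. In all, 8 of the 11 ratios were separate, in a comparison where 52.2% of single genes tested were separate too, and the share among other pairs of genes was not computed. The ratios of *ETFA* to *ETFB*, *PEX13* to *PEX14* and *HSD17B4* to *SCP2* overlapped, with log2 differences of -0.068, -0.054 and 0.0036.

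**Figure D4:**
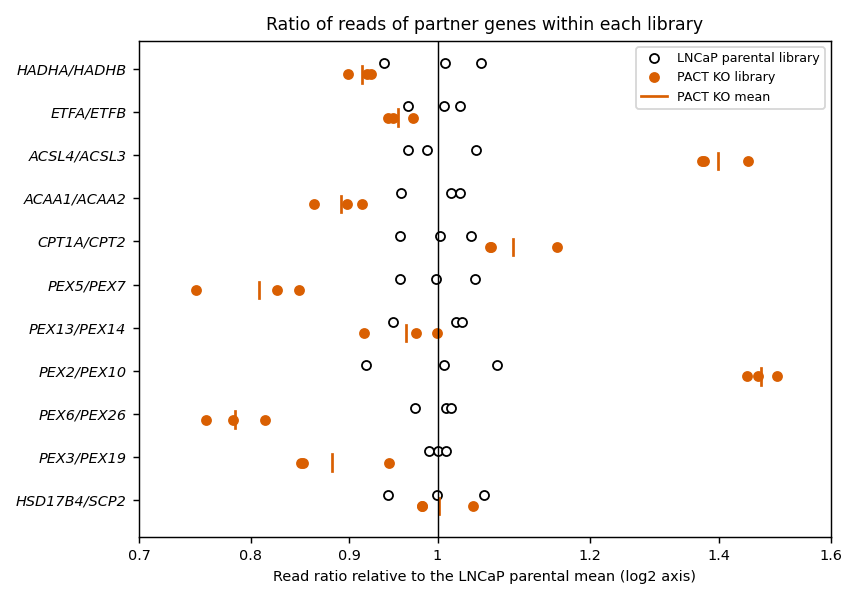
Ratio of reads of 11 pairs of partner genes in each library, relative to the LNCaP parental mean (x axis, log2 scale). Open circles are LNCaP parental and orange circles PACT KO libraries, and orange lines are PACT KO means. *PEX2/PEX10* and *ACSL4/ACSL3* lie to the right of all parental libraries, and *PEX5/PEX7* and *PEX6/PEX26* to the left.

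Other genes of the pathway were read from lists compiled by function, and their counts can be set beside the 18.8% lower and 15.3% higher among all genes tested. Of 21 further genes of mitochondrial oxidation tested, 5 were lower and 1 higher. Library totals as the scaling gave 5 and 3, the filter of 1 CPM 5 and 2, and leaving out PACT KO replicate 1 gave 4 and 2. *ACAT1*, the thiolase of ketone body and isoleucine breakdown, was at -0.17 (SE 0.030, FDR = 1.05e-05) on the log2 scale in edgeR, and *ACADSB*, a dehydrogenase of branched short chains, at -0.17 (SE 0.032, FDR = 3.18e-05). *HSD17B10* was at -0.15 (SE 0.031), and *CPT1C*, a brain form of the carnitine transferase, at -0.56 (SE 0.13), from 4.71 to 3.20 CPM.

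Of 29 further peroxisomal enzymes and carriers tested, 6 were lower and 2 higher. With library totals as the scaling 5 were lower and 5 higher. The number higher was 1 with the replicate block and without LNCaP parental replicate 1, 2 or 3 or PACT KO replicate 1 or 2, with 5 or 6 lower. *HACL1*, the lyase of alpha-oxidation, was at -0.35 on the log2 scale (SE 0.034, FDR = 7.29e-11, edgeR), and *TYSND1*, a protease that trims imported enzymes, at -0.38 (SE 0.041, FDR = 5.61e-10). *ACOX2*, the oxidase of bile acid intermediates and branched chains, was higher. It had 37, 29 and 40 reads in parental libraries and 113, 77 and 78 in knockout libraries, a DEG at 2.52-fold (log2 fold change 1.33, SE 0.17, FDR = 1.89e-08). Of 10 further peroxins and fission factors tested, 0 passed in edgeR, with log2 fold changes of -0.063 to 0.14. Unadjusted, 2 of them had a p under 0.05. DESeq2 and limma-voom called 0 as well, while library totals as the scaling called 1 higher.

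The other acyl-CoA synthetases and fatty acid carriers gave 5 lower and 2 higher of 15 tested. Without LNCaP parental replicate 1, 2 or 3 or PACT KO replicate 3 the number higher was 1, with 4 or 5 lower. *SLC27A2*, which takes up and activates very long chains, fell from 16.0 to 10.1 CPM (log2 fold change -0.65, SE 0.088, FDR = 9.84e-08, edgeR) and was a DEG. *ACSS1*, the mitochondrial acetyl-CoA synthetase, was a DEG at -1.53 (SE 0.23), on 11 to 58 reads. *DBI*, which binds acyl-CoA in the cytosol, was at -0.31 (SE 0.032, FDR = 1.76e-10), and *ACSM3* at -0.30 (SE 0.068). Of the 15 genes, 2 lower and 1 higher were DEGs, against 2.65% and 3.07% of all genes tested. The lipases of lipid droplets gave 2 lower and 0 higher of 7, *PNPLA2* at -0.20 (SE 0.038) and *MGLL* at -0.44 (SE 0.10).

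Among 12 tested partners and targets of PPAR, 6 were lower and 1 higher, or 5 and 2 with library totals or upper quartile scaling. The filter of 1 CPM (11 genes tested), DESeq2 and the replicate block gave 5 and 1. So did leaving out LNCaP parental replicate 1, 2 or 3 or PACT KO replicate 1 or 2. *PPARGC1B*, a coactivator of mitochondrial genes, was at -0.45 on the log2 scale (SE 0.078, FDR = 9.16e-06, edgeR) and its partner receptor *ESRRA* at -0.28 (SE 0.035, FDR = 2.73e-08). *NCOA1*, a general coactivator of nuclear receptors, was at -0.17 (SE 0.032, FDR = 4.20e-05). All 3 had separate groups. Of the 12 genes, 2 lower and 1 higher were DEGs, against 2.65% and 3.07% of all genes tested. *PPARGC1A* had at most 10 reads per library and was not tested.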

How the data were processed

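RNA-seq counts of 3 LNCaP parental and 3 PACT KO libraries were used. The deposited values are raw read counts per NCBI Gene number, which the authors made with bcl2fastq 2.20.0.422, STAR 2.5.3a and featureCounts 1.5.3 on hg38 (the labels' processing notes also name StringTie 1.3.3). The annotation and the use of strand and of reads with several matches are not given in the sources used here. A row with no gene number (0.0688% to 0.0708% of reads) was left out. With 19930060 to 24940838 reads per library, 3 reads correspond to 0.121 to 0.148 CPM, and the biological coefficient of variation was 2.9%. Replicates of a group differed by more than sampling noise, so none was merged.

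Of 29806 gene numbers, 27540 received a symbol from RefSeq (GRCh38.p14). Genes were filtered with filterByExpr, scaled by TMM and tested with the quasi-likelihood F-test of edgeR 4.0.16 in R 4.3.3, without a block, over 14462 genes, with Benjamini-Hochberg adjustment (FDR). A gene was called at an FDR under 0.01, and a DEG also changed at least 1.5-fold. Standard errors and 95% intervals were taken from the same fit, and the steps were tested on simulated data. Alternatives were other scalings and filters, DESeq2 1.42.0, limma 3.58.1, edgeR's likelihood ratio test and glmTreat, a replicate block, and leaving out each library. Exonic lengths came from GENCODE release 29. All members and *PRKRA* are named, and of each further list the at most 4 called genes with the smallest p, of which 2 are not reported here. Genes of marker lists, genes that overlap members, and *PPARGC1A* are named outside this rule. Members and lists were chosen with earlier results of these data known. Peroxisomal targeting signals were not analysed here.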

Additional observations from a re-analysis of the deposited data

How the results depend on the processing

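With all libraries, 10 to 15 members were lower and 5 to 9 higher over the other settings, an FDR threshold of 0.05 included (11 to 13 and 4 to 6 with 1 library left out). Of the 19 calls, 12 held in all 15 other fits, *ACSL1*, *ACSL4*, *ECHS1*, *ACAA2*, *ECI1*, *ECI2*, *ETFA*, *ETFB*, *CAT*, *PEX2*, *PEX10* and *PEX6*. A test against 1.5-fold (glmTreat) called 0 members, and *ACSL4* was the DEG in every other setting. With library totals alone, the median log2 fold change was -0.063 for mitochondrial oxidation, 0.036 for peroxisomal oxidation, 0.0016 for peroxins and 0.16 for activation. Upper quartile scaling gave -0.068, 0.031, -0.0035 and 0.16. These scalings moved the median of all genes by 0.029 and 0.024, and the cause of the other differences was not tested. Leaving out 1 library gave medians of -0.066 to 0.058 for peroxisomal oxidation, 0.11 to 0.16 for activation, -0.11 to -0.092 for mitochondrial oxidation and -0.042 to -0.015 for peroxins. Signs turned in 5 members that were never called. With library totals and upper quartile scaling *CPT1A* was at 0.0081 and 0.0028, *ACADS* at 0.017 and 0.012, and *PEX26* at 0.017 and 0.012. With 1 library left out *ACADS* ran from -0.033 to 0.010, *AMACR* from -0.066 to 0.10, *PEX14* from -0.021 to 0.039 and *PEX26* from -0.039 to 0.026.

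Same-numbered libraries of the groups correlated in their deviations at -0.094, 0.0029 and -0.086, and differently numbered ones at -0.083 to 0.153. These values show no sign of pairing by number, but they are too few to settle whether dishes were paired. With the replicate block, 13 members were lower and 7 higher (*ACADVL* lost, *EHHADH* and *PPARA* gained) and 4770 genes were called in all. Depth limited *AMACR* most, at 126 to 185 reads per library.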

Other observations

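The tested genes next to a member on its chromosome, 5 on each side, gave a median log2 fold change that differed in sign from the member in some cases. The 10 neighbours of *ETFA*, which fell, had a median of 0.21, with 0 called lower and 5 higher. Those of *ETFDH*, which also fell, had a median of 0.16, with 1 lower and 4 higher. Those of *ECI1*, which fell too, had a median of -0.27, with 6 lower and 0 higher. *HSD17B4*, which rose, had neighbours with a median of 0.18, with 0 lower and 4 higher. Near *PEX16*, which did not pass, 7 of 10 neighbours were higher and 1 lower (median 0.31), and near *ACADM*, which did not pass either, the median was 0.35 with 2 higher and 1 lower. These are values of one clone and its parental line, and no test was made on them.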
